A study of Mus musculus with 3 samples.

Results

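The genes described here are 47 mouse genes that have a known role in closure of the neural tube or were named for it by the study, and they were examined for ChIP-seq peaks of 3 antibodies in NE4C cells. Members were taken from a written list and matched by symbol to the GENCODE M1 annotation of mm9, in which all 47 were found among 22380 protein-coding genes (Tfap2a under its older symbol Tcfap2a). Peaks were counted in the gene body, from the first to the last annotated base, and within 10 kb on either side. NE4C is an established line of mouse neural stem cells. The labels give the cells as grown in Eagle MEM on poly-L-lysine and name no other treatment, genotype or age. Chromatin was precipitated with an antibody to H3K79Hcy (homocysteine bound to lysine 79 of histone H3), an antibody to homocysteinylated lysine in general (KHcy) or an antibody to H3K4me3, which served the study as a positive control for promoters. Each antibody has 1 library from the same line, so nothing could be tested between libraries, no p-value is given, and each interval below covers counting error only.

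The neural tube forms when the neural plate narrows, bends and lifts at its edges, and the edges meet and fuse along the back of the embryo. Planar cell polarity genes drive the narrowing, actin regulators bend the sheet by constricting the tips of its cells, Sonic hedgehog and BMP signals set where it bends, and transcription factors such as Grhl2 and Pax3 act in the closing folds and the overlying ectoderm. Homocysteine is an amino acid of methionine and folate metabolism, and its reactive thiolactone can attach to lysine residues of proteins. H3K4me3 is a histone mark usually found over the starts of active genes.

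The H3K79Hcy list held 7387 peaks with 209335 reads, the KHcy list 7300 with 276864 reads and the H3K4me3 list 19339 with 787308 reads. The fold of a peak is its read count over the background of its library across the same length, which was 1.59, 1.49 and 1.38 reads per 200-bp window. As a check of the cell type, H3K4me3 peaks were counted at markers found in the annotation. They lay within 1000 bp of the start of 3 of the 5 neural stem cell markers (Nes, Msi1 and Vim, but not Sox2 or Pax6). The same held for 1 of 2 mesoderm markers (T) and for 0 of 2 markers each for neurons, liver and blood. The share over all genes was 13.6%. In the gene body, H3K4me3 peaks lay in 2 of the 5 neural stem cell markers (Sox2 and Nes) and 1 of the 2 neuron markers (Rbfox3, 21 peaks). The body held such peaks in 0 of 2 markers each for mesoderm, liver and blood, compared with 19.7% of all genes. A gene without a listed peak is one in which no stretch passed the authors' threshold, which does not show that the mark was absent.

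H3K79Hcy peaks lay in the bodies of 15 of the 47 members (31.9%, 95% Wilson interval 20.4 to 46.2%), compared with 7.82% of all protein-coding genes. When only peaks of a higher score were kept, 6 members had one. For that stricter list the share over all genes was not counted, and the mean share among genes of similar length, defined below, was 5.51%. KHcy peaks lay in 11 members (23.4%, 13.6 to 37.2%), compared with 9.28% of all genes, and H3K4me3 peaks in 21 members (44.7%, 31.4 to 58.8%), compared with 19.7%. With 10 kb added on each side, the counts were 16 members for H3K79Hcy (11.2% of all genes), 11 for KHcy (13.1%) and 27 for H3K4me3 (29.4%). The share of members with a peak was thus above that of all genes for each antibody, and the next paragraphs set it beside gene length, the genes nearby and the way the members were chosen.

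Members were long genes. Their median length was 64.2 kb, compared with 15.4 kb over all genes, and 27 of the 47 were longer than 50 kb. Longer genes held peaks more often across the whole annotation, since an H3K79Hcy peak lay in 1.79% of genes under 15 kb and in 28.3% of genes over 100 kb. Genes of similar length are those for which the shorter of gene and member is at least 0.8 times as long as the other. Among them, the mean share with an H3K79Hcy peak was 14.8%. The shares at similar length add up to 6.95 of 47 genes for H3K79Hcy, where 15 members had a peak, to 7.82 for KHcy, where 11 did, and to 12.5 for H3K4me3, where 21 did. The gap to genes of similar length was thus smaller than that to all genes for each antibody. No difference from genes of similar length was tested.

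Within the length classes, H3K79Hcy peaks were found in 0 of 11 members under 15 kb, 1 of 9 from 15 to 50 kb (7.34% of all genes of that class), 4 of 11 from 50 to 100 kb (36.4%, compared with 16.3% of all genes of that class) and 10 of 16 over 100 kb (62.5%, compared with 28.3%). Of the 16 members over 100 kb, 9 had been named by the study from these libraries, and 8 of these had a peak. The other 7 had a peak in 2 cases (28.6%), so the excess in this class lay in the members named by the study. H3K4me3 differed in shape, with peaks in 9 of the 11 members from 50 to 100 kb (81.8%, compared with 29.1% of such genes) and 7 of the 16 over 100 kb (43.8%, compared with 36.9%). KHcy peaks were found in 3 of 11 members from 50 to 100 kb (27.3%, compared with 18.7%) and 6 of 16 over 100 kb (37.5%, compared with 29.7%).

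**Figure D1:**
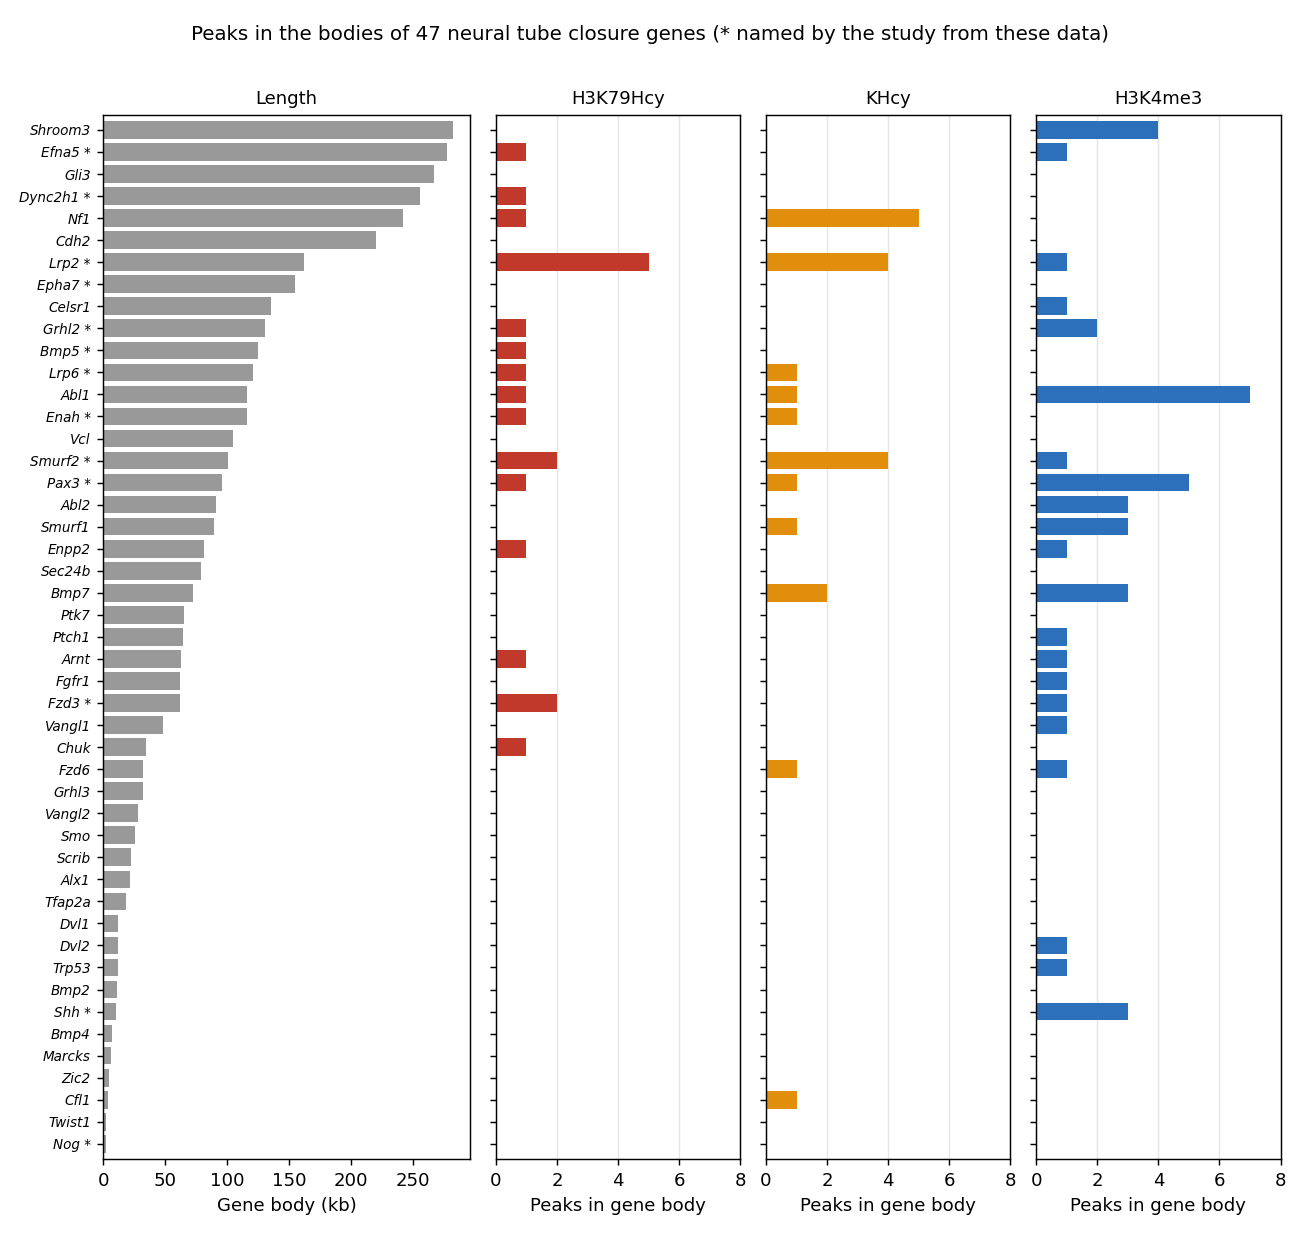
Body length in kb (grey) and number of peaks in the gene body for each antibody (coloured bars, same axis from 0 to 8) for the 47 members, sorted by length, with an asterisk on the 13 that the study named from these data. H3K79Hcy peaks sit in the upper, longer part of the plot, with 0 of 11 members under 15 kb and 5 peaks in Lrp2, while Abl1 with 7 and Pax3 with 5 stand out for H3K4me3.

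Of the members, 13 had been named by the study from these same libraries, 12 in its table of functional clusters of genes with H3K79Hcy peaks and Smurf2 in its account of the ChIP-seq result. Their H3K79Hcy peaks are therefore not independent evidence. H3K79Hcy peaks lay in the bodies of 10 of these 13 (Pax3, Fzd3, Grhl2, Lrp2, Lrp6, Enah, Efna5, Dync2h1, Bmp5 and Smurf2), and the other 3 (Shh, Epha7 and Nog) had none in the body. Among the 34 members that the study had not named, H3K79Hcy peaks lay in 5 (14.7%, 6.45 to 30.1%), namely Abl1, Arnt, Chuk, Enpp2 and Nf1. The mean share of genes of similar length to these 34 was 12.7%, which adds up to 4.32 genes, so the 5 found were close to the number in other genes of their length. For KHcy the same comparison gave 6 of 34 members beside a sum of 4.96, and for H3K4me3 it gave 14 of 34 beside 8.59. The high share of H3K79Hcy over all 47 members thus came mostly from the 13 that had been chosen on H3K79Hcy peaks.

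**Figure D2:**
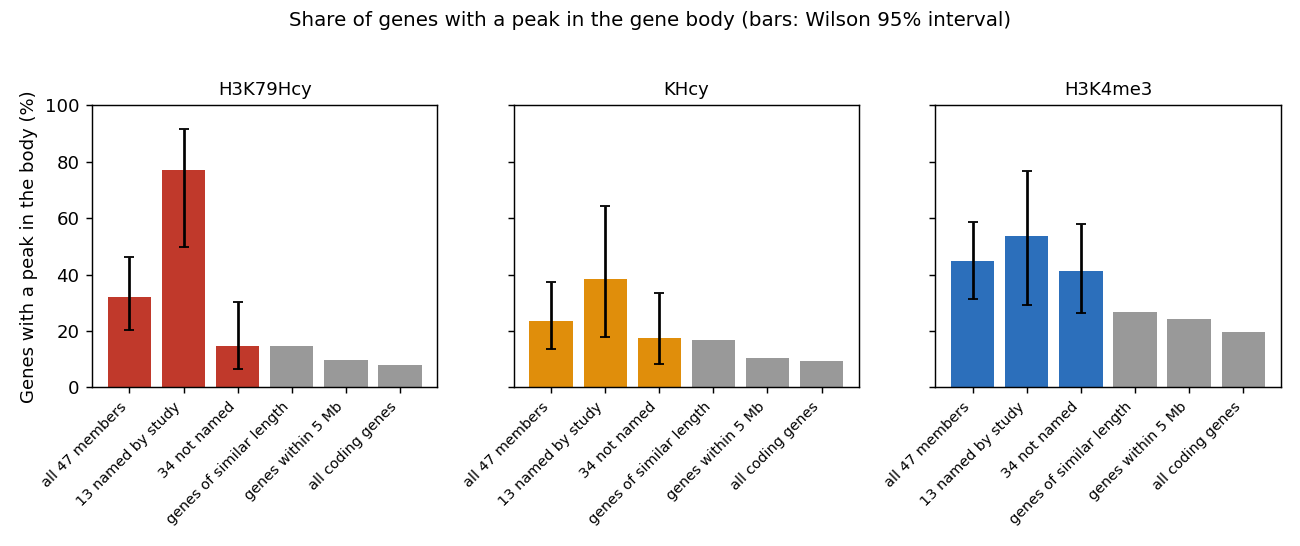
Share of genes (%, axis from 0 to 100) with a peak in the gene body for all 47 members, the 13 named by the study and the 34 others (coloured, with Wilson 95% intervals), beside the mean share of genes of similar length, the mean share of genes in the same 5 Mb and the share of all protein-coding genes (grey). For H3K79Hcy the 34 other members reach 14.7% (genes of similar length to these 34, which are not drawn, reach 12.7%), while the 13 named by the study reach 76.9%.

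The stretch of chromosome around a member also differed between members. In the 5 Mb centred on each, other protein-coding genes had an H3K79Hcy peak in 9.64% of cases on average (mean over the 46 members with a gene there, since Epha7 had none), a KHcy peak in 10.5% and an H3K4me3 peak in 24.2%. When only neighbours from 0.5 to 2 times the length of the member were kept, the means were 17.3%, 16.7% and 29.4%. Members with an H3K79Hcy peak had a median of 18 further H3K79Hcy peaks in their 5 Mb (range 1 to 75), not counting the gene and its 10 kb flanks, and members without had a median of 8.5 (range 0 to 48). For KHcy the medians were 27 and 7, and for H3K4me3 they were 46 and 23.5. Over all 47, the medians were thus higher around members with a peak, and the ranges overlapped. Among the 13 named by the study the order was the opposite for H3K79Hcy (16.5 with and 19 without) and H3K4me3 (40 and 48.5).

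Whole chromosomes differed in the same way. The lists held 0.0992 H3K79Hcy peaks per Mb on chromosome 18, 0.190 on chromosome 12, 0.283 on chromosome 13 and 0.296 on chromosome 14, where 9 members lie, compared with 1.24 to 7.69 on the 13 chromosomes that hold the other 38 members. On all chromosomes with under 1 H3K79Hcy peak per Mb, a limit chosen after the values had been seen, 0.757% of 6735 genes had an H3K79Hcy peak, 0.846% a KHcy peak and 4.02% an H3K4me3 peak. Of the 9 members there, Fzd3 had H3K79Hcy peaks, none had a KHcy peak, and Fzd3 and Ptch1 had an H3K4me3 peak. Zic2, Vcl, Bmp4, Gli3, Tfap2a, Twist1 and Cdh2 had no peak in the body and stand on chromosomes where nearly all genes had none. On the remaining chromosomes, 14 of 38 members had an H3K79Hcy peak, compared with 10.9% of 15645 genes, 11 a KHcy peak (12.9%) and 19 an H3K4me3 peak (26.4%). Of the 26 members there that the study had not named, 5 had an H3K79Hcy peak, 6 a KHcy peak and 13 an H3K4me3 peak. These shares over genes are not adjusted for length, and the members were long. The files hold no control library, so the number of chromosome copies or of reads in these stretches cannot be told apart from the level of a mark. The part of this local density in the members' counts was not tested.

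Among the genes of Sonic hedgehog signalling and cilia, Lrp2 held the most homocysteinylation peaks of any member. Lrp2 encodes megalin, an endocytic receptor that binds Sonic hedgehog in the forming forebrain. Its body (chr2:69262397-69424122, minus strand, 162 kb) carried 5 H3K79Hcy peaks, 4 KHcy peaks and 1 H3K4me3 peak. At least 5 H3K79Hcy peaks were found in 0.513% of the 780 genes of similar length, and at least 4 KHcy peaks in 2.44%. Lrp2 had been named by the study from these libraries, and it was singled out here after the counts had been seen. Its 5 Mb held 32 further H3K79Hcy peaks and 42 further KHcy peaks. Of the other genes there, 31.7% had an H3K79Hcy peak and 36.6% a KHcy peak. The H3K79Hcy peak of largest fold lay in an intron 30.5 kb after the gene start (chr2:69393201-69394000), with 21 reads and a fold of 3.30 (95% Poisson interval 2.04 to 5.04). A group of 3 lay between 135 and 141 kb after the start, at chr2:69288401-69289400 over a coding exon (26 reads, fold 3.27), and in introns at chr2:69284801-69285800 and chr2:69282201-69283200 (21 reads and a fold of 2.64 in each). The last, at chr2:69334401-69335200, touched a coding exon (18 reads, fold 2.83) and was the only H3K79Hcy peak of the gene that overlapped a KHcy peak, chr2:69334801-69338200 (51 reads, fold 2.02). The gene thus had homocysteinylation peaks along most of its length, and 1 of its 5 H3K79Hcy peaks overlapped KHcy, compared with 13.9% of the whole list. A further H3K4me3 peak lay downstream of the gene (45 reads, fold 2.72).

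The 300 bases in the middle of the overlap of these peaks (chr2:69334851-69335150, mm9, written along the minus strand of the gene) are shown because they are the stretch of Lrp2 listed for both homocysteinylation antibodies, with CG pairs in capitals. The stretch holds 1 CG pair and runs of alternating c and a, and 39.7% of its bases are G or C.
Lrp2 overlap: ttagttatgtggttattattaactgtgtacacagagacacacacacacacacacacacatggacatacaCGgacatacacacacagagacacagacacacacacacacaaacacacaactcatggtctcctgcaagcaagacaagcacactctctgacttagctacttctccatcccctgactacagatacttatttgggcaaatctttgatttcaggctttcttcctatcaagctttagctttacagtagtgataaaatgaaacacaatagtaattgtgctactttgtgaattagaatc

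The other members of this group held few peaks. Dync2h1, the motor heavy chain of transport back along the cilium, had 1 H3K79Hcy peak over a coding exon 153 kb after its start (chr9:7031001-7032400, 31 reads, fold 2.78, interval 1.89 to 3.95), the most reads of any H3K79Hcy peak in the members, and no peak of the other antibodies. Shh, the ligand itself, is only 10.3 kb long and carried 3 H3K4me3 peaks, which 1.00% of genes of similar length reached, 1 more upstream (36 reads, fold 2.01) and no homocysteinylation peak. Ptch1, the receptor of the ligand, held 1 H3K4me3 peak (28 reads, fold 1.84, the lowest of the H3K4me3 peaks in the members). Smo, the signal transducer, and Gli3, a transcription factor of the pathway, had no peak of any antibody within 10 kb, although Gli3 spans 267 kb and 33.3% of genes of its length had an H3K79Hcy peak. Gli3 and Ptch1 lie on chromosome 13, and no gene in the 5 Mb around Gli3 had an H3K79Hcy peak.

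The planar cell polarity group, with 12 members, had H3K79Hcy peaks in 2, KHcy peaks in 3 and H3K4me3 peaks in 7, where genes of similar length sum to 1.52, 1.79 and 3.16. Both members with H3K79Hcy peaks, Fzd3 and Smurf2, had been named by the study from these libraries. Smurf2 and Smurf1, ubiquitin ligases that act on the polarity protein Prickle1 and on the BMP pathway, differed in their peaks. Smurf2 (chr11:106681380-106782029, minus strand) held 2 H3K79Hcy, 4 KHcy and 1 H3K4me3 peaks. Its H3K79Hcy peaks lay near the end of the gene, at chr11:106681401-106682600 over a noncoding part of an exon (28 reads, fold 2.93, interval 1.95 to 4.24) and at chr11:106689801-106691200 over a coding exon (27 reads, fold 2.42). The former overlapped the KHcy peak chr11:106682001-106683600 (27 reads, fold 2.27), and a further KHcy peak lay just beyond the gene, over the neighbouring Ccdc45. Smurf1 had no H3K79Hcy peak, 1 KHcy peak and 3 H3K4me3 peaks, all in introns.

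The middle 300 bases of the overlap in Smurf2 (chr11:106682151-106682450, mm9, minus strand) are given for comparison with the stretch of Lrp2, again with CG pairs in capitals. They hold 3 CG pairs, and 43.0% of their bases are G or C.
Smurf2 overlap: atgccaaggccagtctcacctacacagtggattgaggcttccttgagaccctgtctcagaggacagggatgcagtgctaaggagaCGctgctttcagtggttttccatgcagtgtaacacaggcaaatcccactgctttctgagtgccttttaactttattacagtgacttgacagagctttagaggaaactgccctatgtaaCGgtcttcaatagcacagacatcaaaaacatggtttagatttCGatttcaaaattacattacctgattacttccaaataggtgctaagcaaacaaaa

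Fzd3, a Frizzled receptor needed for neural tube closure together with Fzd6, carried 2 H3K79Hcy peaks. The first lay over a noncoding part of an exon at the end of the gene (chr14:65819601-65820400, 20 reads, fold 3.14, interval 1.92 to 4.85), and the second lay in an intron (chr14:65839601-65840600, 19 reads, fold 2.39). Its H3K4me3 peak lay in an intron near the start (29 reads, fold 3.00). Only 1 other H3K79Hcy peak lay in the 5 Mb around Fzd3, the fewest around any member with an H3K79Hcy peak in its body. Fzd6 instead had 1 KHcy peak in an intron (34 reads, fold 1.91), 1 H3K4me3 peak after its start and 2 before it. The remaining polarity genes held H3K4me3 peaks or nothing. Vangl1, Celsr1 and Dvl2 each had 1 H3K4me3 peak in the body, Scrib had 1 upstream over the neighbouring Puf60, and Vangl2, Dvl1, Ptk7 and Sec24b had no peak within 10 kb. Vangl2, the core polarity gene mutated in the Loop-tail mouse, lay 116 kb from the nearest H3K79Hcy peak, 40.7 kb from the nearest KHcy peak and 12.3 kb from the nearest H3K4me3 peak.

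Lrp6, a co-receptor for Wnt ligands, had 1 H3K79Hcy peak in an intron (chr6:134464601-134465400, 18 reads, fold 2.83) and 1 KHcy peak at the end of the gene (37 reads, fold 2.26), which lay far apart, and 1 H3K4me3 peak upstream.

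Among the 8 transcription factors, Pax3, Grhl2 and Arnt held an H3K79Hcy peak, where genes of similar length sum to 0.802. Since Pax3 and Grhl2 had been named by the study from these libraries, this count is not independent evidence. Pax3, which marks the dorsal neural folds and is mutated in the Splotch mouse, held peaks of all 3 antibodies. Its H3K79Hcy peak lay in an intron 62.6 kb after the start (chr1:78130601-78131600, 23 reads, fold 2.89, interval 1.83 to 4.33), and a further H3K79Hcy peak lay upstream (chr1:78203201-78204600, 27 reads, fold 2.42). It held 5 H3K4me3 peaks, a number that 2.58% of genes of similar length reached, and 2 more lay upstream within 10 kb. The widest of these, chr1:78186001-78190800 over coding exons, had 89 reads, the most of any peak in a member body. The H3K4me3 peaks of Pax3 lay over the first exons, in the stretch before them and in introns farther along, and both H3K79Hcy peaks stood apart from them.

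Grhl2, a grainyhead factor of the surface ectoderm, was the only member with an H3K79Hcy peak within 1000 bp of its outermost annotated start (1 of 47, compared with 0.880% of all genes). The peak (chr15:37163401-37164600, 22 reads, fold 2.30, interval 1.44 to 3.49) lay in an intron and overlapped an H3K4me3 peak that began 10 bp after the start (chr15:37162801-37164200, 32 reads, fold 3.31, interval 2.26 to 4.67). A second H3K4me3 peak lay in an intron 63.4 kb after the start (27 reads, fold 2.44). The 300 bases in the middle of the overlap (chr15:37163651-37163950, mm9, plus strand) are shown because they contrast with the stretches of Lrp2 and Smurf2. They hold 31 CG pairs, in capitals, and 68.7% of their bases are G or C.
Grhl2 overlap: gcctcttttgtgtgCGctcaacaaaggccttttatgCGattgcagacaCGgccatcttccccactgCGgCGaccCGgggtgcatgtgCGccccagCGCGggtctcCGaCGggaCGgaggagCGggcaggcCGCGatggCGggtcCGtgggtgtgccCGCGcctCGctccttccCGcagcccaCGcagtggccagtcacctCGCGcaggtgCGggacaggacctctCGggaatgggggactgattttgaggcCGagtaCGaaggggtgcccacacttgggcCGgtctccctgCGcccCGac

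Arnt, a partner of several basic helix-loop-helix factors, had its H3K79Hcy peak over coding exons near the end of the gene (chr3:95294601-95295800, 28 reads, fold 2.93) and an H3K4me3 peak that began 91 bp after the start (44 reads, fold 3.54, interval 2.57 to 4.75), with a wide H3K4me3 peak upstream (95 reads, fold 2.46). Tfap2a had 1 H3K4me3 peak, upstream of the gene. Grhl3, Zic2, Twist1 and Alx1 had no peak within 10 kb, and Zic2 and Twist1, which are 4.47 and 2.15 kb long, lie on chromosomes poor in peaks.

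In the actin group of 7 members, H3K79Hcy peaks lay in 2, KHcy peaks in 3 and H3K4me3 peaks in 3, where genes of similar length sum to 1.22, 1.36 and 1.93. Of the 2 with an H3K79Hcy peak, Enah had been named by the study and Abl1 had not. The 14 H3K4me3 peaks of the group all lay in Abl1, Shroom3 and Abl2. Abl1, a tyrosine kinase that acts on the cytoskeleton, carried 7 H3K4me3 peaks along its 116 kb, a number that 1.24% of genes of similar length reached, 1 KHcy peak and 1 H3K79Hcy peak over coding exons near its end (chr2:31651601-31653000, 26 reads, fold 2.33, interval 1.52 to 3.42). Its 5 Mb held 139 further H3K4me3 peaks. The related Abl2 had 3 H3K4me3 peaks in introns and no homocysteinylation peak, and Shroom3, which recruits the contractile machinery to the tips of cells, had 4 H3K4me3 peaks and none of the others despite a length of 282 kb. Enah, an actin-elongating protein also known as Mena, had 1 H3K79Hcy peak (chr1:183933601-183934600, 21 reads, fold 2.64) and 1 KHcy peak (38 reads, fold 1.97), both in introns. Cfl1, the actin-severing protein cofilin, had 1 KHcy peak over its start and 1 H3K4me3 peak downstream, over the neighbouring Snx32. Vcl and Marcks had no peak within 10 kb.

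The H3K79Hcy and H3K4me3 peaks of largest fold in the members were at the same place in Efna5. Efna5 encodes ephrin-A5, a membrane-bound ligand of Eph receptors such as Epha7, and loss of the gene disturbs closure of the head folds. The H3K79Hcy peak was a single 200-bp window in an intron 144 kb after the start, with 15 reads, a fold of 9.42 (interval 5.27 to 15.5) and a fold above that of 99.3% of the list. The H3K4me3 peak covered the same window and the next (17 reads, fold 6.16, interval 3.59 to 9.86). Both were the shortest peaks of their antibody in member bodies and had the fewest reads. A peak of a single window must have a high fold to reach the listing score. The fold of such a peak is therefore not comparable with that of wider peaks.

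Of the 31-base words in the Efna5 window, 38.8% occur more than once in the genome, the highest value among body peaks of members, compared with a median of 0.649% in 185 H3K79Hcy peaks taken at even steps through the list. The part of repeated sequence in the fold of this peak was not tested. Epha7 and Cdh2, the remaining members of the adhesion group, had no peak within 10 kb although they span 154 and 220 kb. The stretches around Efna5, Epha7 and Cdh2 were poor in peaks, with 3, 3 and 0 further H3K79Hcy peaks in 5 Mb.

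**Figure D3:**
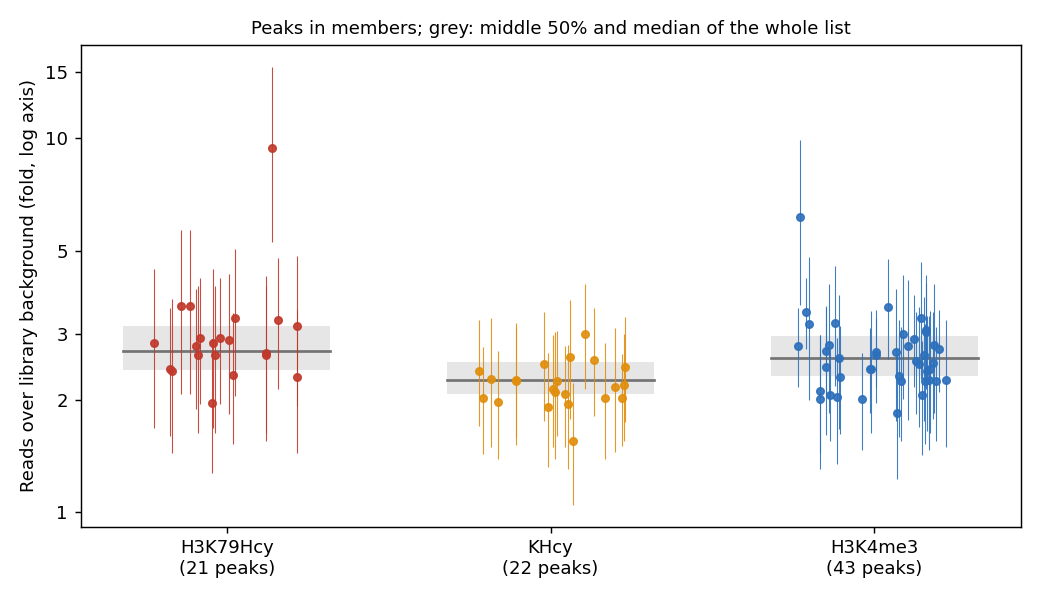
Fold of each peak in a member body over the background of its library (log axis), with 95% Poisson intervals, for 21 H3K79Hcy, 22 KHcy and 43 H3K4me3 peaks, beside the middle 50% (grey box) and the median (line) of each whole list, with points spread sideways at random. Most member peaks lie around the median of their list. The peaks at the Efna5 window, the shortest drawn for these antibodies, stand apart at 9.42 for H3K79Hcy and 6.16 for H3K4me3.

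Of the 5 BMP ligands and antagonist, 1 had an H3K79Hcy peak, 1 KHcy peaks and 1 H3K4me3 peaks in the body, where genes of similar length sum to 0.462, 0.547 and 1.04. The member with the H3K79Hcy peak, Bmp5, had been named by the study from these libraries. Bmp5 had 1 H3K79Hcy peak near the end of the gene over a coding exon (chr9:75740401-75742000, 25 reads, fold 1.96, interval 1.27 to 2.90), the lowest fold of the H3K79Hcy peaks in the members. Bmp7 held 2 KHcy and 3 H3K4me3 peaks. Nog, which encodes the BMP antagonist noggin and is only 1.92 kb long, had no peak in the body but an H3K79Hcy peak upstream (chr11:89172401-89173200, 19 reads, fold 2.98), which was the only member gained when 10 kb were added, and 1 H3K4me3 peak on either side. Bmp2 and Bmp4 had no peak within 10 kb.

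In the last group of 5 members, H3K79Hcy peaks lay in 3, KHcy peaks in 1 and H3K4me3 peaks in 3, where genes of similar length sum to 0.749, 0.854 and 1.37. None of the 3 with an H3K79Hcy peak had been named by the study, and no group was tested. The kinase gene Chuk had 1 H3K79Hcy peak over a coding exon (chr19:44161001-44161600). Enpp2, which encodes the lipid-producing enzyme autotaxin, had 1 in an intron (chr15:54702601-54703200), and each of the 2 had 17 reads and a fold of 3.56 (interval 2.07 to 5.70). An H3K4me3 peak lay just after the start of Enpp2 (42 reads, fold 3.04) and another downstream of Chuk, over Erlin1 (24 reads, fold 2.90). Nf1, a regulator of Ras, had 1 H3K79Hcy peak (chr11:79291401-79292200, 17 reads, fold 2.67) and 5 KHcy peaks, a number that 3.60% of genes of similar length reached. Of these KHcy peaks, 3 overlapped Omg, Evi2b or Evi2a, genes that lie within introns of Nf1, so they cannot be assigned to Nf1 alone. The lowest fold of the KHcy peaks in the members, 1.55, was among these. Trp53 had 1 wide H3K4me3 peak (85 reads, fold 3.42) after its start, and Fgfr1 had 1 in an intron (27 reads, fold 2.79).

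**Figure D4:**
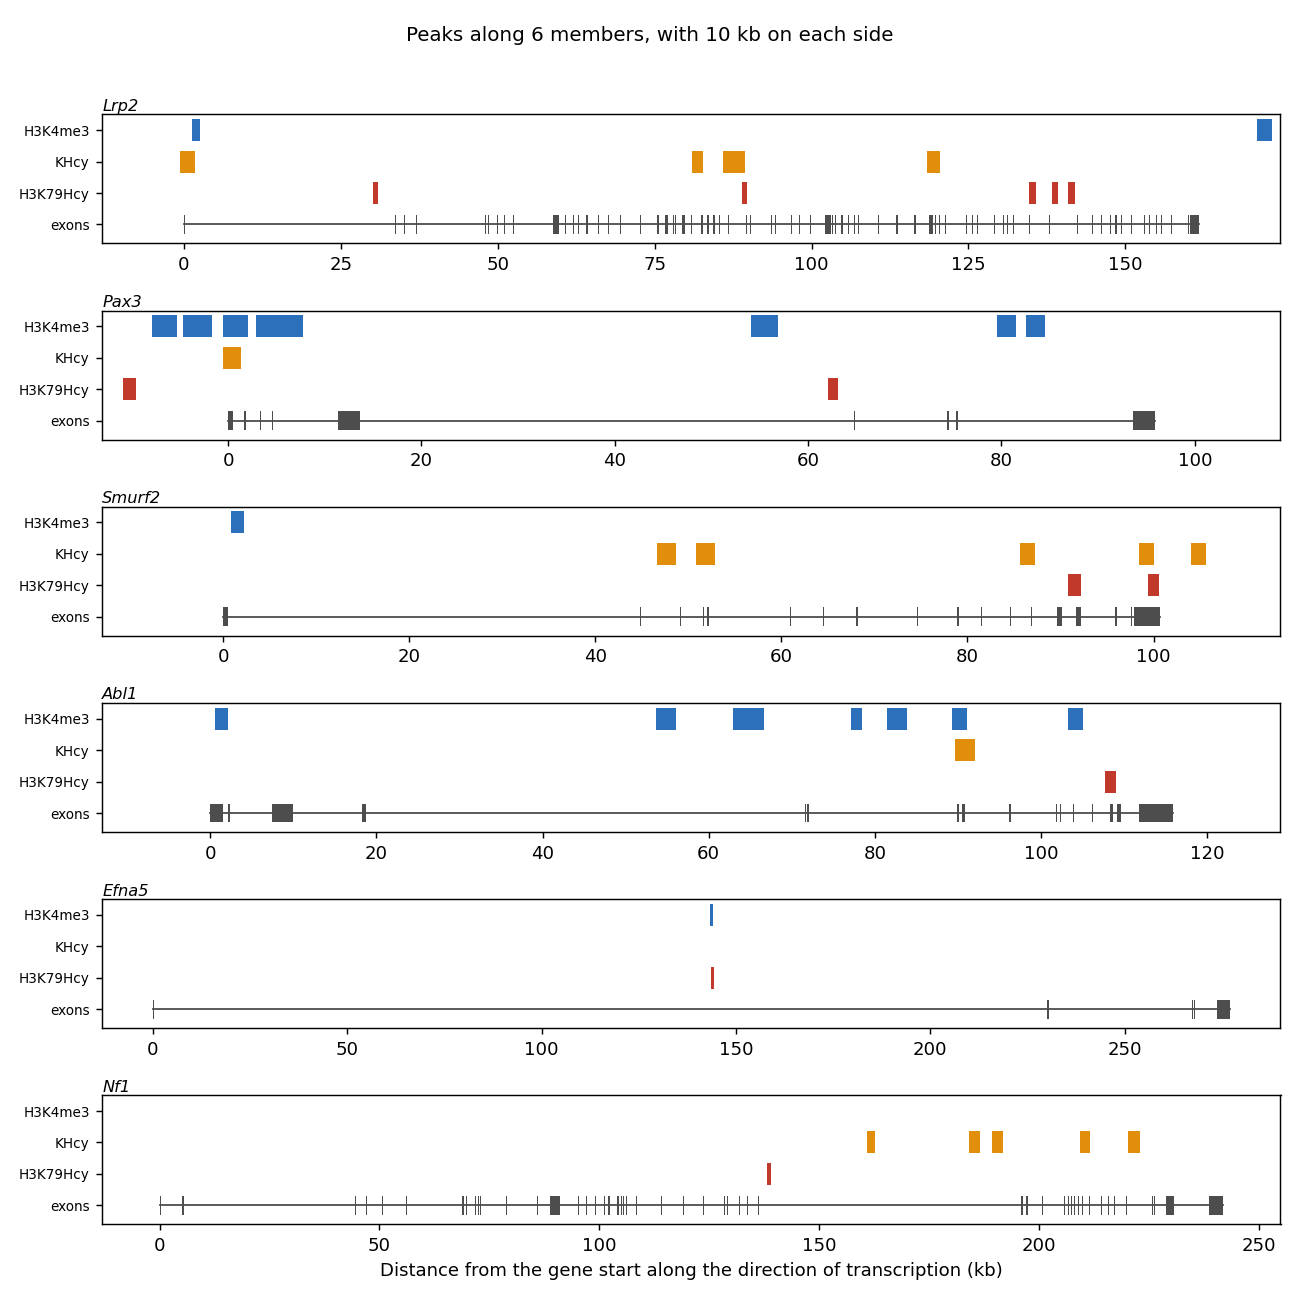
Peaks of the 3 antibodies along Lrp2, Pax3, Smurf2, Abl1, Efna5 and Nf1 with 10 kb on each side, as distance in kb from the gene start in the direction of transcription, with exons in dark grey (the narrowest boxes are widened to be visible). Peaks of H3K79Hcy (red) lie mostly in the later part of the genes. H3K4me3 (blue) has a peak near the start of Lrp2, Pax3, Smurf2 and Abl1, with further peaks farther along Pax3 and Abl1. The coloured boxes seldom stand above each other.

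In total, 16 of the 47 members had no peak of any antibody in the body or within 10 kb (34.0%, compared with 63.6% of all genes). These were Vangl2, Dvl1, Ptk7, Grhl3, Zic2, Gli3, Smo, Vcl, Marcks, Epha7, Twist1, Alx1, Sec24b, Bmp2, Bmp4 and Cdh2. Peaks of all 3 antibodies were found in the bodies of 4 members (Pax3, Lrp2, Abl1 and Smurf2, 8.51%, compared with 2.91% of all genes). Only Abl1 among these 4 had not been named by the study from these libraries, so this share is not independent evidence. No peak in the body was found for 19 members (40.4%, compared with 74.5%). Of the 15 members with an H3K79Hcy peak, 7 also had a KHcy peak in the body (46.7%), compared with 53.5% of all genes with an H3K79Hcy peak. In the other direction, 7 of the 11 members with a KHcy peak had an H3K79Hcy peak (63.6%, compared with 45.1%), and 9 of the 21 with an H3K4me3 peak had one (42.9%, compared with 23.0%). Of these 7, only Abl1 and Nf1 had not been named by the study from its H3K79Hcy peaks. Of these 9, only Abl1, Arnt and Enpp2 had not. The higher shares of members are therefore not independent evidence, and none of the shares here is adjusted for length.

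The gene start used here is the outermost annotated base of the gene, and in members it was seldom inside a peak. The start of 0 of 47 members lay inside an H3K79Hcy peak (Wilson interval up to 7.56%), compared with 0.416% of all genes, of 3 inside a KHcy peak (Pax3, Lrp2 and Cfl1, compared with 0.996%), and of 2 inside an H3K4me3 peak (Pax3 and Shh, compared with 5.41%). Within 1000 bp of the start, KHcy peaks were found for the same 3 members (1.60% of all genes) and H3K4me3 peaks for 13 (27.7%, interval 16.9 to 41.8%, compared with 13.6%). The count for H3K4me3 thus rose from 2 to 13 members with the distance allowed. Starts of other annotated transcripts, farther inside the gene, lay in H3K79Hcy peaks of Abl1 and Smurf2. The same held for H3K4me3 peaks of Vangl1, Dvl2, Grhl2, Abl1, Arnt and Bmp7. For such starts the share over all genes was not counted.

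Most of these peaks lay inside the gene. Of the 13 H3K4me3 peaks within 1000 bp of a member's start, 10 began after the start in the direction of transcription, from 10 bp after it in Grhl2 to 829 bp in Smurf2, while 2 covered the start and 1, in Tfap2a, ended before it. Among these 10, the peaks of Dvl2, Grhl2, Abl1, Arnt and Bmp7 covered the start of another annotated transcript of the gene. They thus began after the outermost start but not after every start. Over all genes, 43.1% of such H3K4me3 peaks began after the start, 37.1% covered it and 19.8% ended before it. The KHcy peaks over the starts of Pax3 (chr1:78192401-78194200, 30 reads, fold 2.24), Lrp2 (chr2:69422401-69424800, 40 reads, fold 2.24) and Cfl1 (chr19:5490001-5491800, 28 reads, fold 2.09) instead covered it, from position -484 in Cfl1 and -678 in Lrp2, counted in bp from the start. The H3K4me3 peak over the start of Pax3 (chr1:78191601-78194200, 52 reads, fold 2.90, interval 2.16 to 3.80) ended at the same position upstream as the KHcy peak, and that of Shh (chr5:28791801-28795400, 69 reads, fold 2.78, interval 2.16 to 3.51) reached position -1759.

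**Figure D5:**
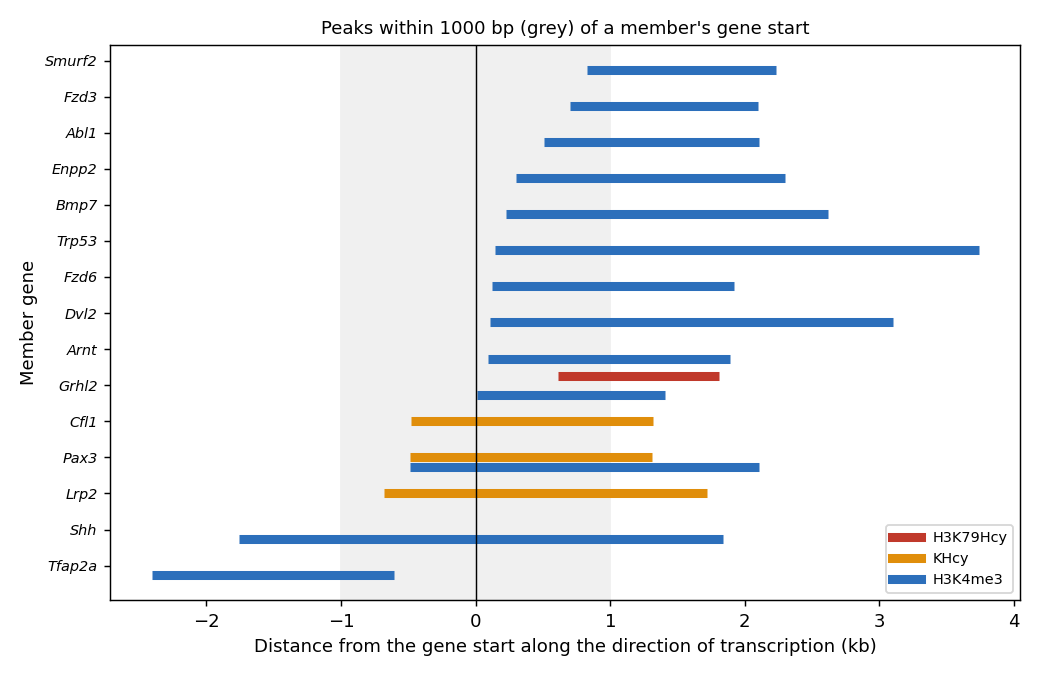
Extent of every peak that comes within 1000 bp (grey band) of a member's gene start, as distance in kb from the start (vertical line) in the direction of transcription, coloured by antibody. In 10 of 13 members with an H3K4me3 peak the bar begins to the right of the start, the 3 KHcy bars all cross it, and the single H3K79Hcy bar, in Grhl2, begins 610 bp after it.

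The starts inside a peak are shown as the 250 bases before to 50 bases after the annotated start (mm9, each written along the strand of its gene), with CG pairs in capitals, because they differ widely in CG content. The stretches are chr1:78193660-78193959 for Pax3 (minus strand), chr5:28793592-28793891 for Shh (minus), chr2:69424073-69424372 for Lrp2 (minus) and chr19:5490235-5490534 for Cfl1 (plus).
Pax3 start: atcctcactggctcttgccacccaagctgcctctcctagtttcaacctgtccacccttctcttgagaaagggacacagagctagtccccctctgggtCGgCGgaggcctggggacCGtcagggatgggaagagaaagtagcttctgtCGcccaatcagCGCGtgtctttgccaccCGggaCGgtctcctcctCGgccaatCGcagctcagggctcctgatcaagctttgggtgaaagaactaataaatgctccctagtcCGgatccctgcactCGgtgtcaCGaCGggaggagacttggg
Shh start: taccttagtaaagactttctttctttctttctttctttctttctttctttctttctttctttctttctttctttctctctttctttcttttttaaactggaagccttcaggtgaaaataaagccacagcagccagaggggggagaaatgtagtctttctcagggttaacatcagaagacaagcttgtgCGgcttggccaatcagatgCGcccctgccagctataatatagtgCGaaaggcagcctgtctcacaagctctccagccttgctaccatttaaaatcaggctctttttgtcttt
Lrp2 start: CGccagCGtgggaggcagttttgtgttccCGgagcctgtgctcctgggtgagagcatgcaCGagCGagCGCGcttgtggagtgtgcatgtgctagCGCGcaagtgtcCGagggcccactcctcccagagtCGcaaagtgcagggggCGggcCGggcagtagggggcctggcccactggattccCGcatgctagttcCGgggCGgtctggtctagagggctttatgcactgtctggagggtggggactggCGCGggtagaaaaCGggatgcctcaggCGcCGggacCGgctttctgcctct
Cfl1 start: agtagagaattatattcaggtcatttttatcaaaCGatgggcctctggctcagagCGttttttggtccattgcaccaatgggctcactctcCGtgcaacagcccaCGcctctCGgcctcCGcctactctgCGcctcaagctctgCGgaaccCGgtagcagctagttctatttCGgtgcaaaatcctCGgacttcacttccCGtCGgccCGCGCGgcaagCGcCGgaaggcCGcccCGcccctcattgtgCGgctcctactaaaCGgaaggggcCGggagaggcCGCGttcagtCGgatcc

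These stretches hold 14 CG pairs for Pax3, 3 for Shh, 22 for Lrp2 and 26 for Cfl1. The start of Shh, the poorest in CG of these, holds a run of repeated tttc and lay inside an H3K4me3 peak all the same. Over the same 300 bases, the starts of 46 members (Cdh2, on chromosome 18, was not read) held a median of 25 CG pairs, compared with 11 over 21845 genes. The 13 members with an H3K4me3 peak within 1000 bp had a median of 18 (range 3 to 43), and the 33 without had a median of 27 (range 2 to 53). Over all genes the order was the opposite, with a median of 21 CG pairs where such a peak was listed and 9 where none was. CG-rich members without a listed H3K4me3 peak near the start included Lrp6 with 53 CG pairs, Enah with 49 and Smurf1 with 47.

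The place of the peaks within the gene was counted as follows. With each body divided into 3 equal parts along transcription, the centres of the 21 H3K79Hcy peaks fell 3 times in the part nearest the start, 8 times in the middle and 10 times in the part nearest the end (14.3%, 38.1% and 47.6%). Over all genes the shares were 30.8%, 32.5% and 36.7% of H3K79Hcy peaks. The 22 KHcy peaks gave 4, 7 and 11, close to the counts for H3K79Hcy, and the part nearest the start held 18.2% of them, compared with 31.9% over all genes. The 43 H3K4me3 peaks gave 22, 13 and 8, and the share nearest the start, 51.2%, was near the 52.7% over all genes. Coding exons were touched by 8 of the 21 H3K79Hcy peaks (38.1%, interval 20.8 to 59.1%), compared with 25.9% of all H3K79Hcy peaks in genes, by 10 of 22 KHcy peaks (45.5%, compared with 38.2%) and by 14 of 43 H3K4me3 peaks (32.6%, compared with 35.2%). Peaks from the same gene are not independent of each other, and 5 of the 21 H3K79Hcy peaks came from Lrp2.

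Overlaps between antibodies were few in members and in the whole lists. Of the 21 H3K79Hcy peaks, 2 overlapped a KHcy peak (Lrp2 and Smurf2, 9.52%, compared with 13.9% of the whole list) and 2 an H3K4me3 peak (Grhl2 and Efna5, 9.52%, compared with 15.4%). H3K4me3 peaks were overlapped by 5 of 22 KHcy peaks (22.7%, compared with 16.5%), near the starts of Pax3, Lrp2 and Bmp7 and farther inside Abl1 and Smurf1. The distance from an H3K79Hcy peak in a member to the nearest KHcy peak had a median of 60.8 kb, compared with 25.2 kb over the list, and 3 of 21 lay within 10 kb (14.3%, compared with 35.4%). The nearest H3K4me3 peak was likewise farther, at a median of 37.4 kb compared with 28.8 kb, and lay within 10 kb of 4 of 21 (19.0%, compared with 33.5%).

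The heights of member peaks were near those of their lists. The median fold was 2.83 for H3K79Hcy (2.70 over the list), 2.18 for KHcy (2.25) and 2.53 for H3K4me3 (2.59). The KHcy peak of largest fold was chr2:69341401-69343200 over coding exons of Lrp2 (40 reads, fold 2.99, interval 2.14 to 4.07). The reads per peak ran from 15 to 31 for H3K79Hcy, from 27 to 51 for KHcy and from 17 to 89 for H3K4me3, and apart from the Efna5 window the Poisson intervals of all H3K79Hcy peaks in members overlap each other, so no order of height can be read among them. A stricter list, made by asking for a score above the lowest by at least ln 100, kept 6 of the 21 H3K79Hcy peaks (28.6%, compared with 31.04% of the whole list), in Pax3, Lrp2, Arnt, Efna5, Dync2h1 and Smurf2. Of these genes, only Arnt had not been named by the study. In base composition the members' H3K79Hcy peaks had a median of 39.9% G or C (40.3% over the list), KHcy peaks 43.1% (40.9%) and H3K4me3 peaks 45.8% (44.9%).

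Other genes of the same pathways, outside the members, were counted in the same way for planar cell polarity, Sonic hedgehog signalling with cilia, and BMP signalling. Of 45 listed, 44 were found. H3K79Hcy peaks lay in 4 (Prickle2, Ror1, Bmpr1b and Acvr1), where genes of similar length sum to 5.82. KHcy peaks lay in 7, beside a sum of 6.56, and H3K4me3 peaks in 15, beside 11.4. Of the 14 further hedgehog and cilia genes, 0 had an H3K79Hcy peak in the body, beside a sum of 1.63, and 4 had a KHcy peak, beside 1.97. Prickle2, a polarity gene of 335 kb, stood out with 7 H3K79Hcy, 14 KHcy and 10 H3K4me3 peaks. The pathway genes outside the members thus held H3K79Hcy peaks about as often as other genes of their length, as the 34 members not named by the study did. The 3 chromatin genes that the study followed up, Cecr2, Smarca4 and Dnmt3b, had 5, 1 and 1 H3K79Hcy peaks in the body and were chosen on these libraries.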

How the data were processed

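The authors precipitated chromatin of NE4C cells with each antibody, sequenced the DNA and aligned the reads to mm9. The submitters' processing notes name MACS 1.4.2, whereas a legend of the study names SICER, and the lists are built of 200-bp windows. For each peak the authors deposited its position, its length, a count of reads and a score. The columns in which a control would stand hold no values, and no fold or false discovery rate is given, so the planned stricter rate was replaced by a limit on the score. In peaks of 1 window the deposited score matched −ln of the Poisson probability of the count, which gave the background of each library.

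Peaks were counted over GENCODE M1 gene bodies in mm9, with an overlap of at least 1 bp, and sequences were read from NCBIM37, the same build. For the 3 members with more than 1 gene entry the longest was used. The 47 members, the pathway lists and the alternatives were chosen with earlier results of these data known. Every member is named; positions, reads and folds are given for nearly all H3K79Hcy peaks in bodies, for peaks over gene starts and for the peak of largest fold of each antibody, and other values were chosen after they had been seen. Disp1, Sox1 and Map2 were not matched and are not analysed here. Intervals are 95% Wilson intervals for shares and exact Poisson intervals for reads. They cover counting error only. Library totals were not used here, so depth is described by the reads in peaks. The position and sequence of 1 peak are not reported here. Scripts were tested on simulated data. Python 3.11.15 was used with numpy 2.4.6, pandas 2.3.3, scipy 1.17.1, pysam 0.24.0 and matplotlib 3.10.9.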

Additional observations from a re-analysis of the deposited data

How the results depend on the processing

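Each value was recomputed under other settings, of which 2 were chosen after seeing the data (neighbours of 0.5 to 2 times the member's length, and body counts without peaks in which over 50% of 31-base words are repeated). No body peak of a member passed that limit of 50%, so the latter setting could not change a count. Of 78 alternative values, 50 stayed within 1.5 times the count or within the interval of the share, and those of this setting are among the 50. The stricter list moved most of the others. It left H3K79Hcy peaks in 6 members (6 also with 10 kb) and 6 peaks in bodies, with 5.51% of genes of similar length and 2.45% of genes nearby. For KHcy it left 7 members (7 with 10 kb), 12 peaks and 1 start inside a peak, with 8.34% and 4.65%. For H3K4me3 it left 28 peaks, with 17.7% and 16.0%. It left 0 overlaps of H3K79Hcy with KHcy, 1 of H3K79Hcy with H3K4me3 and 2 of KHcy with H3K4me3. Fewer peaks are listed by construction. Without the members named by the study, 5 members had an H3K79Hcy peak and 6 a KHcy peak. An overlap of at least 50% of the peak left 3 KHcy peaks shared with H3K4me3. With the centre of the peak required at the gene start, 0 starts were counted for KHcy and 0 for H3K4me3, and within 1000 bp 1 was counted for H3K79Hcy and 13 for H3K4me3. Neighbours of similar length had peaks in 17.3%, 16.7% and 29.4% of cases for H3K79Hcy, KHcy and H3K4me3, and a stretch of 10 Mb gave 12.0% for KHcy. No paired analysis was possible because each antibody has 1 library and the result comes from no test. With 1 library per antibody, no error between replicates is known, and 15 to 31 reads per H3K79Hcy peak in members leave wide intervals.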
